A study of Homo sapiens with 2 samples.

Results

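S phase and replication genes were followed here as a fixed set of 38 genes, taken by gene symbol from the 33538 human genes listed in the deposited matrices. The set covers loading and activation of the replicative helicase, DNA polymerases and the sliding clamp, nucleotide supply, protection of the replication fork, repair, chromatin assembly and G1/S control. The study profiled single cells of the established human bladder carcinoma line UMUC3, which had grown orthotopically for 14 days in C57 nude mice kept under normal conditions. The control library held cells whose genotype is given as control, and the knockdown library held GANAB knockdown cells. GANAB codes for the catalytic subunit of glucosidase II, which trims N-glycans in the endoplasmic reticulum. Each condition is 1 library, for which 10000 cells were loaded, and the labels do not say how many mice gave cells or how the knockdown was made. The nude mouse is the host of a human line that keeps growing there, so a mouse cell can appear in these tables only through reads counted for a human gene. With 1 library per condition no test between conditions was possible, and all intervals below cover counting error only.

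In a dividing cell the MCM helicase is loaded onto origins in G1 and is switched on at the start of S phase, when CDC45 and the GINS complex join it. PCNA then clamps the polymerases to DNA, ribonucleotide reductase and thymidylate synthase supply deoxynucleotides, and chaperones bring new histones to the fork. Most of these genes are targets of E2F transcription factors, and their transcripts build up around the G1/S boundary and in S phase, so their level in a population follows the share of cells in or near S phase as well as the level within those cells.

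Cells were barcodes with at least 15000 unique molecular identifiers (UMIs, each counting 1 captured transcript) and at most 20% mitochondrial UMIs. There were 4385 control cells with a median of 44046 UMIs and 2672 knockdown cells with a median of 40933. Over 10 UMIs per 1e6 UMIs of the library's cells (CPM) stood 8 of 12 UMUC3 markers in control and 9 of 12 in knockdown cells. Summed fibroblast markers reached 15.0 and 12.4 CPM, summed endothelial markers 0.135 and 0.377, and all 7 T and NK cell markers were at 0 in the knockdown library and 5 of them in the control library. Of the macrophage and neutrophil markers, CD68 (26.7 and 24.9 CPM) and G0S2 (129 and 66.2 CPM) exceeded 10 CPM and the others did not. GANAB itself stood at 127 CPM in control and 42.3 CPM in knockdown cells. The libraries also differed in the kind of tumour cell they held. Cells that carried at least 5 UMIs of FAM133A, TMEM132D-AS1 and SEMA3A together, and at least 3 times as many as of MAN1A1, made up 10.9% of control cells (480 cells) and 89.1% of knockdown cells (2380 cells). They are called subclone-like below and the other control cells main cells. Cells under 0.5% mitochondrial UMIs made up 16.1% of control and 33.4% of knockdown cells. Values for the members are therefore given within these kinds of cell as well.

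Most of the replication genes stood at lower CPM in the knockdown library, none was higher by the size rule, and SLBP, UNG and UBR7 lay within 0.05 of equal on the log2 scale. A gene counted as measured at 10 CPM or more in either library and as lower or higher at a ratio of at least 1.5, a rule of size that stands in for a test. Of the 38 members 34 were measured, and 17 of them were lower, where 10.4% of all 7872 measured genes were lower. No member was higher, where 7.69% of all measured genes were. The median log2 ratio of knockdown over control was -0.59 over the measured members and -0.07 over all measured genes. Below 0 lay 32 of the 34 members, where 56.8% of all measured genes did. Without cells over 100000 UMIs the count of lower members was 27, where 13.1% of measured genes were lower.

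**Figure D1:**
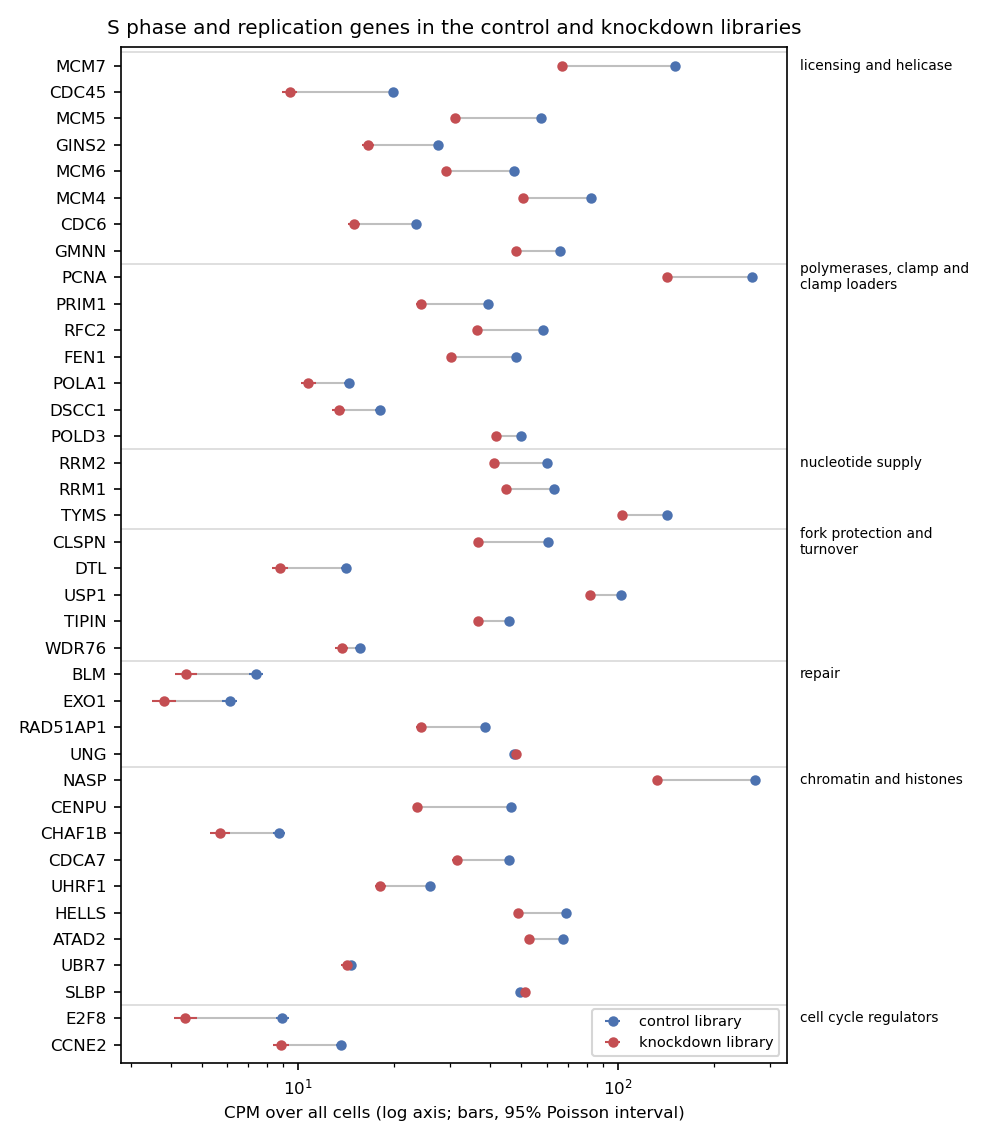
CPM of each of the 38 members over all cells of the control library (blue) and the knockdown library (red), on a log axis and grouped by role, with 95% Poisson intervals. MCM7, PCNA and NASP show wide gaps at high CPM, and the points of UNG, SLBP and UBR7 lie almost on top of each other.

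The helicase and its loading factors held the largest share of lower members, 7 of 8, with a median log2 ratio of -0.72. MCM7 (ENSG00000166508, chr7:100092728-100101940 on GRCh38, minus strand), a subunit of the replicative helicase, stood at 151 CPM in control cells (95% Poisson interval 149 to 153) and at 67.0 CPM in knockdown cells (65.6 to 68.4). Its log2 ratio of -1.17 (95% counting interval -1.21 to -1.14) was the lowest of the 38. CDC45 (ENSG00000093009, chr22:19479459-19520612, plus strand), which completes the active helicase with GINS, stood at 19.9 CPM (19.3 to 20.5) and 9.43 CPM (8.91 to 9.96), a log2 ratio of -1.08. The other MCM subunits were lower by less. MCM5 went with 57.7 CPM in control and 31.0 CPM in knockdown cells, MCM6 with 47.5 and 29.1 CPM, and MCM4 with 82.3 and 50.5 CPM. GINS2, a GINS subunit, stood at 27.4 and 16.5 CPM, and CDC6, which loads MCM onto origins, at 23.4 and 15.0 CPM. The exception was GMNN, which encodes geminin, the inhibitor of loading that accumulates after origins fire. At 66.2 and 48.0 CPM its log2 ratio of -0.47 did not reach the size rule.

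Among the 7 genes of the polymerases, the clamp and its loaders, 4 were lower and the median log2 ratio was -0.67. PCNA (ENSG00000132646, chr20:5114953-5126626, minus strand), the sliding clamp, stood at 264 CPM in control (262 to 266) and 143 CPM in knockdown cells (141 to 145), a log2 ratio of -0.88 (-0.91 to -0.86). PRIM1, the catalytic primase subunit, stood at 39.4 and 24.2 CPM. RFC2, a subunit of the clamp loader, stood at 58.3 and 36.5 CPM. FEN1, the nuclease that trims Okazaki fragments, stood at 48.2 and 30.2 CPM. These 3 had log2 ratios between -0.70 and -0.67. POLA1, the catalytic subunit of polymerase alpha (14.5 and 10.8 CPM, -0.42), DSCC1 of an alternative clamp loader (18.0 and 13.4 CPM, -0.42) and POLD3 of polymerase delta (49.9 and 41.5 CPM, -0.26) did not reach the size rule.

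None of the 3 enzymes of nucleotide supply was lower by the size rule over all cells, and their median log2 ratio was -0.50. TYMS, thymidylate synthase, stood at 143 CPM in control and 103 CPM in knockdown cells, a log2 ratio of -0.47 (-0.50 to -0.45). RRM1 and RRM2, the large and small subunits of ribonucleotide reductase, stood at 63.1 and 44.8 CPM and at 60.1 and 41.1 CPM, with log2 ratios of -0.50 and -0.55. Within the subclone-like cells of both libraries all 3 were lower by the size rule, where 5.95% of 7809 measured genes were. TYMS stood at -0.68, RRM1 at -0.63 and RRM2 at -0.74.

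Fork protection and turnover factors spread widely, with 2 of 5 lower and a median of -0.33. CLSPN, the checkpoint mediator claspin, stood at 60.7 and 36.5 CPM, a log2 ratio of -0.73. DTL, the substrate receptor that marks CDT1 for destruction in S phase, stood at 14.2 and 8.81 CPM, a log2 ratio of -0.69. USP1, the deubiquitinase that acts on PCNA, stood at 103 and 81.8 CPM (-0.33), TIPIN of the fork protection complex at 45.7 and 36.6 CPM (-0.32) and WDR76 at 15.6 and 13.7 CPM (-0.19), none of them past the size rule.

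Of the 4 repair genes, RAD51AP1, a factor of homologous recombination, was lower at 38.4 and 24.3 CPM. UNG, the uracil glycosylase that clears misincorporated uracil, stood at 47.4 CPM (46.5 to 48.3) in control and 48.1 CPM (47.0 to 49.3) in knockdown cells, a log2 ratio of 0.02 (-0.02 to 0.07). The exonuclease EXO1 (6.13 and 3.81 CPM) and the helicase BLM (7.41 and 4.48 CPM) stayed under 10 CPM in both libraries and were not counted, although their ratios, -0.69 and -0.73 on the log2 scale, lay near those of the helicase subunits.

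The 9 chromatin and histone genes ranged from log2 ratios near those of MCM7 and CDC45 to the highest of the measured members. NASP (ENSG00000132780, chr1:45583846-45618904, plus strand), a chaperone of histones H3 and H4, stood at 270 CPM in control (267 to 272) and 132 CPM in knockdown cells (130 to 134), a log2 ratio of -1.03. CENPU, a protein of the inner kinetochore, stood at 46.5 and 23.7 CPM, a log2 ratio of -0.97. These were the 2 lower members of the group. UHRF1, which guides maintenance methylation of DNA, stood at 26.0 and 18.1 CPM (-0.52), the chromatin remodeller HELLS at 69.1 and 49.0 CPM (-0.50), CDCA7, its activator, at 45.8 and 31.4 CPM (-0.55) and ATAD2 at 67.5 and 52.7 CPM (-0.36). SLBP, which binds the stem-loop of histone mRNAs, stood at 49.6 CPM in control and 51.2 CPM in knockdown cells, a log2 ratio of 0.05 (0.00 to 0.09). UBR7 stood at 14.6 and 14.2 CPM (-0.04). CHAF1B, a subunit of the chromatin assembly factor CAF-1, was under 10 CPM at 8.73 and 5.71.

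Both regulators stood lower in the knockdown library. CCNE2, cyclin E2, which drives entry into S phase, stood at 13.6 and 8.86 CPM and was lower by the size rule at a log2 ratio of -0.62. E2F8, a repressor of the E2F family, stood at 8.95 CPM in control and 4.45 CPM in knockdown cells, under the 10 CPM needed to be counted, with a log2 ratio of -1.01 (-1.14 to -0.87).

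Since many of these genes are E2F targets, the bases around their start sites were searched for E2F letters in RefSeq's GRCh38.p14 table of 250 bases before to 50 bases after each gene start. The table held 30 of the 38 members, not MCM4, MCM5, POLD3, DSCC1, WDR76, ATAD2, CCNE2 or E2F8. TTTCGCGC, TTTGGCGC, TTTCCCGC or TTTGCCGC, on either strand, occurred in 14 of the 30 windows (46.7%) and in 3.30% of all 34796 windows of the table. The letters CCAAT, on either strand, occurred in 66.7% of the 30 and in 34.6% of all, and TTTGAA, the letters of the cell cycle homology region of G2 and M phase genes, in 3 of the 30 and in 15.2% of all. The median log2 ratio of knockdown over control was -0.52 over the 14 with E2F letters in the window and -0.68 over the 16 without. Only 6 of the 30 windows held no exon base before the start, and for MCM7, FEN1, USP1 and UBR7 all 250 bases there were exon bases. A window can thus miss the promoter of the transcripts counted, so the 2 medians do not compare promoters with and without the letters. A match is a description of the letters and not a site of binding. Shown here, 5′ to 3′ on the gene's strand with the E2F letters in capitals, are the 250 bases before the start of the 3 members whose window holds complete E2F letters and no exon base of the GENCODE 29 annotation. They are MCM6 (chr2:135876444-135876693, minus strand), POLA1 (chrX:24693668-24693917, plus strand) and HELLS (chr10:94545538-94545787, plus strand).
MCM6: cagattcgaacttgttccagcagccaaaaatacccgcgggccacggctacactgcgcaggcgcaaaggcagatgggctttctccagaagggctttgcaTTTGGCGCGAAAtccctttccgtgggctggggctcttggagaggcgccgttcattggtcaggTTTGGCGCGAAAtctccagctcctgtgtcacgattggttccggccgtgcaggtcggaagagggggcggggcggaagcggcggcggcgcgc
POLA1: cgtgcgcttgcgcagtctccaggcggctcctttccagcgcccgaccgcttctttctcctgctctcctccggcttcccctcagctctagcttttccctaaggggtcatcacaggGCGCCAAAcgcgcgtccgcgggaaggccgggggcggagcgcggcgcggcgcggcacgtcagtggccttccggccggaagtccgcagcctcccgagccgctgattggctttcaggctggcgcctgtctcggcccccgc
HELLS: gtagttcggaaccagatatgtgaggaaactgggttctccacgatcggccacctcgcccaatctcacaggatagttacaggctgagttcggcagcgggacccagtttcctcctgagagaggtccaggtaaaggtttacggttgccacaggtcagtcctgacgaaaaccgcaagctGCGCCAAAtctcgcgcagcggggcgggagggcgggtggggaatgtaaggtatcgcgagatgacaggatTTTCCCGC
The MCM6 window carried 4 matches in 2 runs, since TTTGGCGC and GCGCGAAA overlap in each, HELLS carried 2 and POLA1 1. MCM6 was lower by the size rule, while POLA1 and HELLS were not.

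To separate how many cells held a transcript from how much each held, every cell was thinned at random to 15000 UMIs, a depth that every cell reached. The log2 ratio of thinned means is then the sum of a share component, the log2 ratio of the shares of cells with at least 1 UMI, and a level component, the log2 ratio of UMIs per cell with a UMI. Over the 38 members the share component had a median of -0.66 (range -1.47 to 0.00) and the level component a median of -0.10 (range -0.74 to 0.12). The share component was below 0 for 37 members, where it was for 4657 of all 7872 measured genes, whose median was -0.04. It was the larger of the 2 for 34 of 38 members (89.5%), where it was the larger for 5901 of the 7872 genes. At low levels most cells with a UMI hold exactly 1, so a small level component is partly set by the scale.

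CDC45 was found in 17.0% of control cells (exact 95% binomial interval 15.9 to 18.2) and in 7.63% (6.66 to 8.71) of the knockdown cells, while a cell with CDC45 held 1.37 and 1.26 UMIs. Without thinning the shares were 35.3% and 18.5%. RRM2 was found in 33.6% and 18.9% of cells at 2.18 and 2.17 UMIs each, and TYMS in 54.1% and 34.3% at 3.16 and 3.05 UMIs each. For all 3 fewer knockdown cells held the transcript. Cells with at least 2 UMIs of CDC45 made up 4.58% of control and 1.65% of knockdown cells, and without thinning a cell with CDC45 held 2.75 and 2.53 UMIs, so its level was slightly lower as well. The steepest share component, -1.47, belonged to E2F8, found in 9.26% and 3.33% of cells. CENPU was found in 34.5% and 16.1%, CLSPN in 36.5% and 18.0%, CDC6 in 20.1% and 10.7%, and MCM4 in 48.2% and 28.2%.

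NASP, PCNA and MCM7 differed from the rest in that the level component was large as well. They also had the highest control CPM of the members, and TYMS, the next at 143 CPM, had a level component of -0.05. NASP was found in 90.4% of control and 68.0% of knockdown cells, and a cell with NASP held 4.06 and 2.43 UMIs, giving components of -0.41 and -0.74. PCNA was found in 77.5% and 62.7% of cells at 4.45 and 2.78 UMIs each (-0.30 and -0.68), and MCM7 in 64.4% and 37.5% at 3.08 and 2.06 UMIs each (-0.78 and -0.58). Without thinning the shares were 97.7% and 87.2% for NASP, 91.2% and 84.4% for PCNA and 78.7% and 55.7% for MCM7. Cells with at least 5 UMIs of a gene were therefore counted as well. NASP reached that number in 32.7% of control and 7.97% of knockdown cells, PCNA in 27.7% and 11.0%, and MCM7 in 14.5% and 3.07%. Within those cells the mean was 7.004 and 6.34 UMIs for NASP, 8.81 and 7.55 for PCNA, and 6.50 and 5.78 for MCM7.

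**Figure D2:**
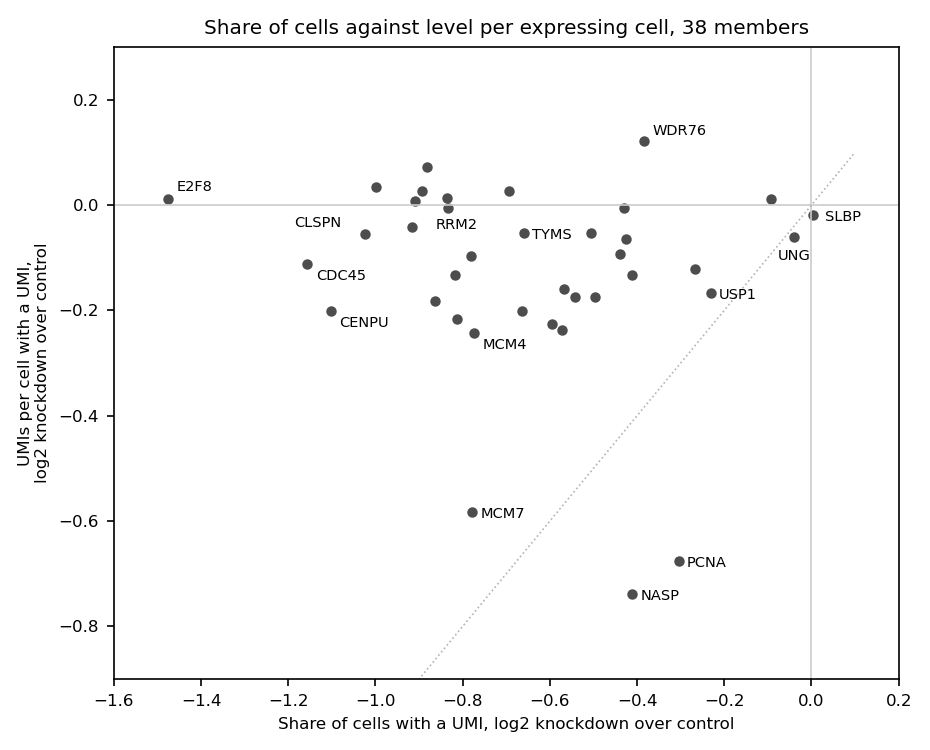
Share component (x axis) against level component (y axis), both as log2 knockdown over control after thinning to 15000 UMIs, for the 38 members. The dotted line marks equal components: most points lie near a level component of 0 and far to the left, while NASP and PCNA lie below the line and MCM7 near it.

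The members' UMIs were then summed in each thinned cell. The sum had a median of 20 in control and 9 in knockdown cells, a 75th percentile of 43 and 21, and a 90th percentile of 65 and 41, and the median cell held UMIs of 12 and 7 different members. A sum of at least 20, the control median, was called replication-high; this is a range cut from a score and not a cell type, with 304 control and 118 knockdown cells within 2 UMIs of the limit. In the control library 51.6% of cells (2264 cells; 50.1 to 53.1) were replication-high, by the choice of the limit, and in the knockdown library 26.3% (704 cells; 24.7 to 28.1). Mean sums were 46.1 and 40.4 in replication-high cells and 9.29 and 7.52 in the other cells. Over all cells the mean sum was 28.3 in control and 16.2 in knockdown cells, a log2 ratio of -0.81. The classes are cut from this same sum, so a lower share and a lower level in every cell cannot be told apart from them. Replication-high cells held more UMIs in all, with a median of 55969.5 in control and 68693.5 in knockdown cells against 35236 and 36249 in the others.

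**Figure D3:**
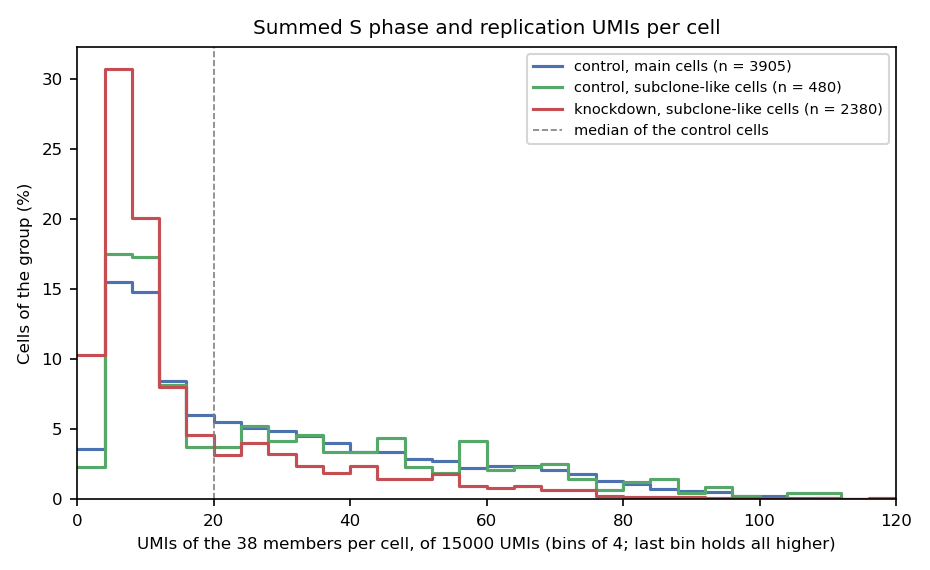
Distribution over cells of the summed UMIs of the 38 members after thinning to 15000 UMIs, as the percentage of cells in bins of 4 UMIs, for main control, subclone-like control and subclone-like knockdown cells. Both kinds of control cell have a long shoulder to the right of the dashed control median of 20, which is lower in the knockdown cells, while the knockdown peak at sums under 12 is higher.

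Within the replication-high class the members differed less between the libraries than over all cells. For this each member was left out of the sum that defined the class. Since the members vary together, the limit on the sum of the others also constrains each member within a class. In replication-high cells the log2 ratio of mean UMIs had a median of -0.10 over the 38 members, from -0.72 for E2F8 to 0.47 for WDR76, with 24 below 0. Within subclone-like cells of the class the median was -0.22, with 33 below 0. In the other cells of the libraries the median was -0.30 with 33 below 0. TYMS stood at 3.03 UMIs per replication-high control cell and 3.22 per replication-high knockdown cell, and RRM2 at 1.34 and 1.37. CDC6 stood at 0.531 and 0.552, but in subclone-like cells of the class at 0.740 and 0.559, log2 ratios of 0.06 and -0.40. FEN1 had log2 ratios of -0.19 in the class and -0.56 in its subclone-like cells. MCM7, at 3.35 and 2.15 UMIs, NASP, at 5.02 and 3.14, and CENPU, at 1.01 and 0.737, remained lower in the knockdown cells of the class, with log2 ratios of -0.64, -0.68 and -0.46. PCNA stood at 5.82 and 4.35 UMIs, a log2 ratio of -0.42. In the other cells NASP stood at 2.28 and 1.10 UMIs and MCM7 at 0.563 and 0.283, log2 ratios of -1.05 and -0.99. For these genes the libraries thus also differed within each class, while for TYMS the log2 ratio was 0.09 in replication-high and -0.02 in other cells.

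**Figure D4:**
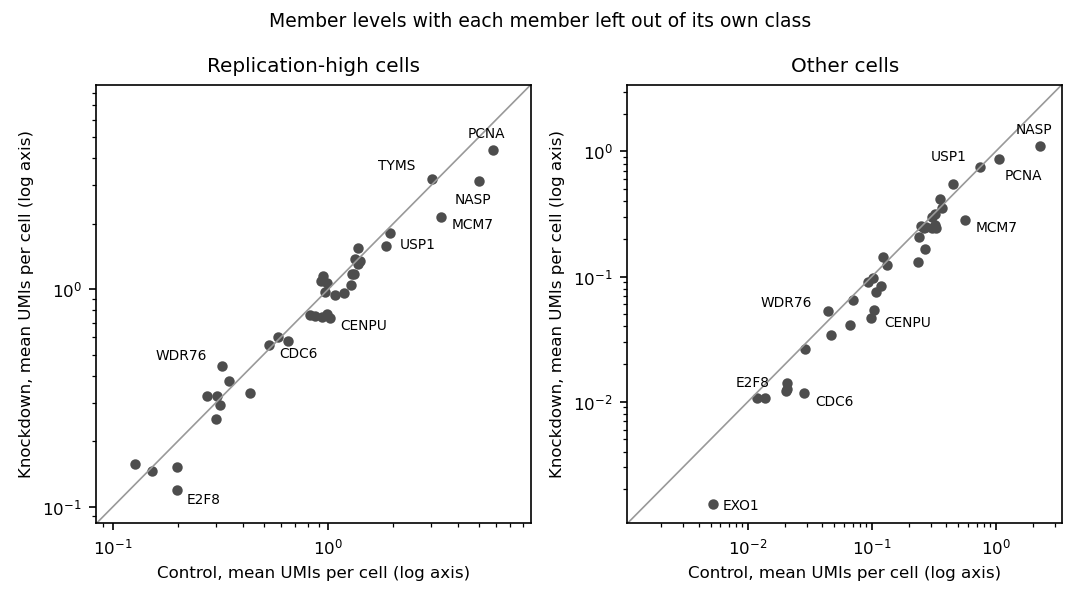
Mean UMIs per thinned cell of each member in control (x axis) and knockdown cells (y axis), both on log axes, in replication-high cells (left) and other cells (right), with each member left out of the sum that defined its class. Points on the line are equal in both libraries: TYMS lies on it in replication-high cells, and NASP and MCM7 lie below it in both panels.

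A pair of readouts that use no member, the replication-dependent histones and the G2 and M phase genes, was set beside the members. Histone mRNAs are made in S phase and mostly lack the poly(A) tail that the 3' kit captures, so only their captured part is seen. The thinned sum of 10 histone genes, most of it HIST1H4C, reached the control 75th percentile of 3 UMIs in 25.9% of control cells (24.6 to 27.2) and 22.5% of knockdown cells (20.9 to 24.1), and 957 and 663 cells lay within 1 UMI of that limit. The thinned sum of 54 G2 and M phase genes reached the control 75th percentile of 79 UMIs in 25.3% and 14.5% of cells. At a limit of 1 histone UMI the shares were 60.5% and 61.0%. Over all cells the histone shares thus lay closer together than the replication-high shares of 51.6% and 26.3%. This did not hold gene by gene or within subclone-like cells. The 3 histones measured had a median log2 ratio of -0.55 over all cells, near the -0.59 of the members, and of -1.06 within subclone-like cells, where the members had -0.69. Histone-high cells made up 35.0% of subclone-like control and 23.4% of subclone-like knockdown cells.

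Cells were then divided by both readouts. In cells high in neither, 64.4% of control and 71.9% of knockdown cells, the mean member sum was 18.7 and 10.7 UMIs. In cells high in histones only, 10.3% and 13.6% of cells, it was 41.0 and 22.5. In cells high in both, 15.6% and 8.87% of cells, it was 56.8 and 45.3, and in cells high in G2 and M phase genes only, 9.67% and 5.65%, it was 32.7 and 25.8. The median log2 ratio over the 38 members was -0.89 in the class high in neither, -0.81 in the histone-only class, -0.28 in the class high in both and -0.30 in the G2 and M phase class. The gap between the libraries was thus wide among cells without high G2 and M phase transcripts and narrow among cells with them. In the histone-only class all 38 members were below 0, from -1.58 for CDC45 to -0.10 for UBR7. In the class high in both, 29 of 38 were, and TYMS, at a log2 ratio of 0.03, RRM2, at 0.03, and CCNE2, at 0.01, were level. Median UMIs per cell differed among these classes, from 38632.5 and 36747 in the class high in neither to 65578.5 and 83154 in the class high in both. The highest mean of a member over the 4 classes lay in the class high in both for 29 members in control and 37 in knockdown cells, and in the histone-only class for the others, in control cells among them MCM5, MCM6, GINS2, DTL, UNG, SLBP and CCNE2.

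The members varied together from cell to cell in both libraries. All 703 pairs of members had a correlation above 0 across thinned cells, with a median Pearson r of 0.233 over 4385 control cells and 0.241 over 2672 knockdown cells. All cells of a library share its preparation, and sampling of few UMIs lowers such values, so they are given as a description. MCM7 went most closely with PCNA (0.611 in control and 0.535 in knockdown cells), then with TYMS and RRM2 in control cells and with MCM4 and TYMS in knockdown cells. TYMS went most closely with PCNA in control cells (0.603) and with RRM2 in knockdown cells (0.594). The nearest to PCNA were MCM7, TYMS and MCM4, the nearest to CDC45 were PCNA (0.442 in control), TYMS and MCM7, and the nearest to RRM2 were TYMS (0.557), PCNA and MCM7. With the sum of the other 37 members, r was highest for PCNA (0.794 in control and 0.712 in knockdown cells) and lowest for UBR7 (0.195 and 0.205). SLBP (0.324 and 0.310) and UNG (0.387 and 0.409) had lower values than PCNA, MCM7, TYMS and RRM2. Low values were not particular to the members near equal between the libraries. POLA1 (0.267 and 0.215) lay below SLBP and UNG, and DSCC1 (0.341 and 0.338) lay near SLBP.

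Since the libraries held different kinds of tumour cell, the members were compared within the subclone-like cells of both. The match was not full. MAN1A1 stood at 8.85 CPM in subclone-like control and 0.436 CPM in subclone-like knockdown cells, TMEM132D-AS1 at 73.7 and 138, FAM133A at 141 and 147, and SEMA3A at 49.6 and 62.8. In all, 436 control and 425 knockdown cells held 3 to 7 UMIs of the last 3 genes, near the limit of 5. Within subclone-like cells 23 of 34 measured members were lower in the knockdown library, where 5.95% of 7809 measured genes were, and none was higher, where 4.34% of measured genes were. The median was -0.69 over the members and -0.07 over all, and all 34 lay below 0, where 59.1% of measured genes did. CDC45 stood at 22.3 CPM in subclone-like control and 9.49 CPM in subclone-like knockdown cells, a log2 ratio of -1.23. MCM7 stood at 146 and 66.7 CPM (-1.13), CENPU at 51.8 and 23.8 CPM (-1.12), CDC6 at 31.4 and 15.2 CPM (-1.05) and FEN1 at 62.1 and 30.4 CPM (-1.03). NASP stood at 225 and 134 CPM, a log2 ratio of -0.75 in place of -1.03 over all cells. Of the members that were near equal over all cells, SLBP stood at 58.7 and 52.1 CPM (-0.17, -0.25 to -0.09) and UNG at 57.7 and 48.9 CPM (-0.24, -0.32 to -0.16). UBR7 stood at 15.5 and 14.3 CPM (-0.12), with an interval of -0.28 to 0.04 that spans 0.

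Between the kinds of control cell, which share a library and carry no knockdown, the members ran slightly the other way. None of 34 was lower in subclone-like than in main control cells, where 1.26% of 7688 measured genes were, and none was higher, where 2.11% were. The median log2 ratio of subclone-like over main cells was 0.18 over the members and 0.02 over all measured genes. CDC6, at 31.4 and 22.3 CPM, and FEN1, at 62.1 and 46.3 CPM, stood highest among the measured members at 0.49 and 0.42, and NASP was the lowest, at 225 CPM in subclone-like and 276 CPM in main cells (-0.29). The share of replication-high cells was 51.0% (245 of 480; 46.5 to 55.6) in subclone-like and 51.7% in main control cells, and 26.5% (630 of 2380; 24.7 to 28.3) in subclone-like knockdown cells. Against main control cells, 16 of 34 members were lower in subclone-like knockdown cells, where 11.0% of measured genes were, and none was higher, where 8.88% were. Of the 3 histones measured, 2 were higher by the size rule in subclone-like than in main control cells. HIST1H4C stood at 307 CPM in subclone-like control, 183 CPM in main control and 223 CPM in subclone-like knockdown cells, and 24.8% of main control cells were histone-high. The 292 other knockdown cells were shallower, with a median of 24477 UMIs. They did not match main control cells in the markers of the split. TMEM132D-AS1 stood at 29.9 CPM in these knockdown cells and 0.484 CPM in main control cells, FAM133A at 33.5 and 8.19, SEMA3A at 15.1 and 3.66, and MAN1A1 at 10.3 and 86.5. Against main control cells 28 of 34 members were lower in the 292 cells, where 21.7% of 7781 measured genes were, and none was higher, where 6.50% were. The median log2 ratio there was -0.87 over the members and -0.24 over all measured genes, and 25.3% of these cells (20.5 to 30.7) were replication-high. With 1 library each, the knockdown cannot be told apart from anything else that differed between the libraries.

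**Figure D5:**
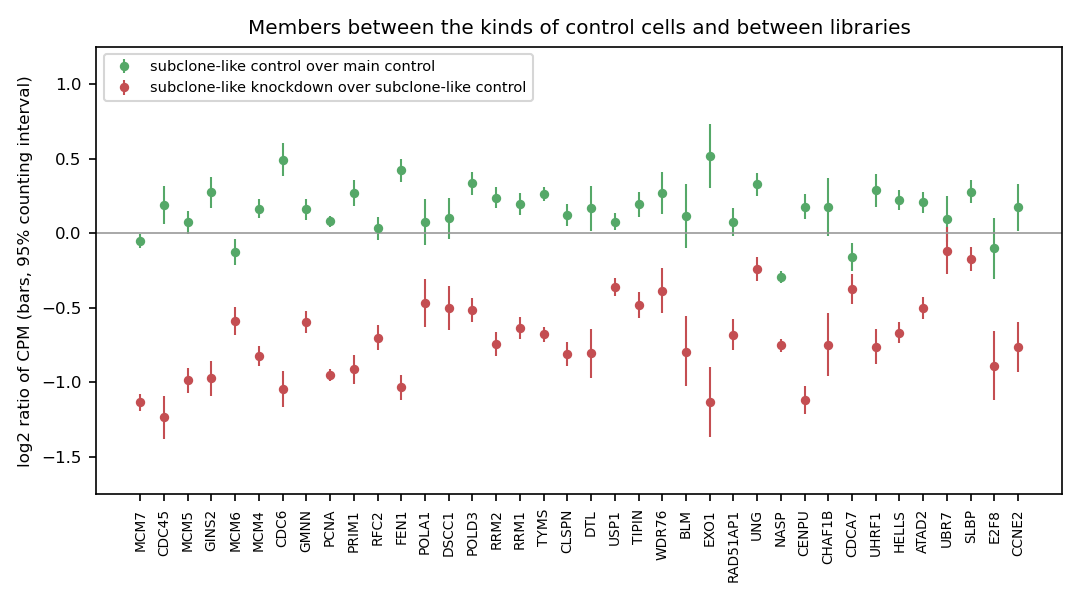
Log2 ratio of CPM for each of the 38 members, with 95% counting intervals, between subclone-like and main cells of the control library (green) and between subclone-like knockdown and subclone-like control cells (red). The green points lie between -0.29 and 0.52 and the red points between -1.23 and -0.12.

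Depth and mitochondrial content moved with the members, and their part in the differences was not tested. Cells over 100000 UMIs, among which doublets were not sought, were replication-high in 79.6% of 162 control and 73.8% of 191 knockdown cells, and without them the shares were 50.6% and 22.7%. The knockdown library held a larger part of such cells, so leaving them out widened the gap between libraries. Among cells with at least 0.5% mitochondrial UMIs, 54.2% of control and 30.1% of knockdown cells were replication-high, and among cells under 0.5%, 38.2% and 18.8% were. The order of the libraries was the same in both ranges.

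The members were also counted in barcodes of 1000 to 14999 UMIs in which fibroblast markers made up at least 1%. These were 273 control barcodes (median 2397 UMIs) and 343 knockdown barcodes (median 1626 UMIs). Such barcodes may hold transcripts of their own, so a share in them is not a measure of free RNA alone. After thinning to 1000 UMIs, the share of control cells with a UMI exceeded that of these barcodes for all 38 members. The share of knockdown cells did so for 35 members, not for POLA1, TIPIN and USP1. Whether the UMIs of POLA1, TIPIN and USP1 in these barcodes came from free RNA was not tested. PCNA was found in 18.3% of control cells and 4.03% of such control barcodes, and in 9.77% and 1.75% in the knockdown library. MCM7 was found in 10.9% and 1.10% in the control library and in 4.72% and 0.292% in the knockdown library. NASP was found in 20.1% and 13.2% in the control library and in 10.4% and 10.2% in the knockdown library, so its share in knockdown cells barely exceeded that of the barcodes. Barcodes of 1 to 100 UMIs were taken as free RNA. In them the members together made up 2001 CPM in the control and 1153 CPM in the knockdown library, near their levels in cells, 2192 and 1405 CPM. In the control library NASP and PCNA stood at 263 and 271 CPM in free RNA, while their shares of the fibroblast-marker barcodes were 13.2% and 4.03%. In the knockdown library USP1 stood at 54.3 CPM in free RNA and 81.8 CPM in cells. TIPIN stood at 28.9 and 36.6 CPM, and POLA1 at 8.43 and 10.8 CPM.

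Other genes of the same pathways, taken from lists that hold none of the members, stood lower in the knockdown library in part. Their counts stand beside the 10.4% lower and 7.69% higher of all measured genes. Of 16 measured genes of origin licensing and firing 5 were lower, with a median log2 ratio of -0.50. CDT1, the licensing factor that geminin inhibits, stood at 25.4 and 10.7 CPM (-1.25), GINS4 at 13.0 and 6.16 CPM (-1.08) and MCM8 at 34.9 and 18.6 CPM (-0.91). The other lower genes were ORC6 (-0.89) and MCM2 (-0.69), named after their values were seen. MCM3, a helicase subunit, at 66.5 and 44.3 CPM (-0.58), and DBF4, the activator of the CDC7 kinase, at 50.3 and 36.6 CPM (-0.46), did not reach the size rule. Of 23 measured polymerase and fork genes 6 were lower, with a median of -0.47. Among them CHAF1A, the partner of CHAF1B in CAF-1, stood at 28.6 and 16.5 CPM (-0.80), RFC4 of the clamp loader at 54.3 and 31.6 CPM (-0.78) and POLD2 of polymerase delta at 122 and 72.8 CPM (-0.74), while the topoisomerase TOP1 (183 and 157 CPM, -0.22) and POLE4 (137 and 133 CPM, -0.05) were near level.

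Of 12 genes of nucleotide synthesis 3 were lower, with a median log2 ratio of -0.21. Among them were TK1, the thymidine kinase of S phase (77.5 and 39.4 CPM, -0.98), and CTPS1 (39.3 and 21.0 CPM, -0.91), whereas DUT (207 and 172 CPM, -0.27) and PAICS (121 and 103 CPM, -0.23) were not. Of 22 E2F, RB and G1/S regulators 6 were lower, with a median of -0.29. E2F1 stood at 21.5 and 11.2 CPM (-0.94), CCNE1 at 10.7 and 6.71 CPM (-0.67), CCNA2 at 31.1 and 19.6 CPM (-0.67) and CCND1, cyclin D1, at 772 and 498 CPM (-0.63). CDK4, its kinase partner, went the other way, at 162 and 212 CPM (0.39), without reaching the size rule. Within subclone-like cells CDK4 stood at 220 and 215 CPM, a log2 ratio of -0.03. Of the 3 histones measured, HIST1H1D was lower (42.3 and 24.0 CPM, -0.82), HIST1H1B stood at 15.1 and 10.4 CPM (-0.55) and HIST1H4C at 198 and 214 CPM (0.11). Of 54 G2 and M phase genes 9 were lower and 1 higher, with a median of -0.42. KIF2C (27.2 and 14.0 CPM, -0.96), CDC20 (123 and 70.2 CPM, -0.80) and NDC80 (24.5 and 14.5 CPM, -0.76) led the lower ones, while UBE2C at 636 and 445 CPM (-0.51) and CKS2 at 326 and 411 CPM (0.34) did not reach the size rule. The higher gene was CBX5 (94.1 and 142 CPM, 0.60), named after its values were seen, and within subclone-like cells its log2 ratio was 0.16.

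Some of these values rest on transcripts that overlap another gene, and no strand rule for the counting is given in the sources used here. Exons of TYMS share 967 bases with the antisense gene ENOSF1, those of CCNE2 share 1629 with INTS8, those of MCM7 share 392 with AP4M1, those of CENPU share 346 with PRIMPOL and those of RRM2 share 1077 with AC007240.1 on the same strand. A count that uses the strand separates the reads of the antisense pairs, and whether it was used is not given here. On the same strand, exons of UBR7 share 511 bases with AL110118.2 and those of CHAF1B share 89 with MORC3. Exons of FEN1 share 49 with FADS2 and those of PRIM1 share 33 with NACA. Strand cannot separate reads from these same-strand stretches or from that of RRM2, and the levels of these members are uncertain to that extent.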

How the data were processed

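Per the labels, the libraries were made with the 10x Genomics Chromium 3' v3 kit. The authors deposited raw counts of UMIs for each barcode, without normalization. The submitters' processing notes name Cell Ranger 3.1.0 and GRCh38. The strand setting, and any mouse genome in the reference, were not given in the sources used here. Both matrices list 6794880 barcodes, so no cell filter had been applied. Cells were barcodes of at least 15000 UMIs with at most 20% mitochondrial UMIs; 1 control and 2 knockdown barcodes failed the latter, 4 cell barcodes occurred in both libraries, and no doublet caller was run.

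Counts were summed per library and divided by library totals of 214188781 and 132709954 UMIs. Single values carry exact Poisson, shares Clopper-Pearson and ratios exact conditional binomial 95% intervals. Thinning drew UMIs without replacement with a fixed seed. On simulated counts for this comparison (7504 genes, 200 changed) all 200 were called in the right direction, 0 of 7304 unchanged genes were called, and 94.95% of their intervals covered the truth. The counts were Poisson draws with every change larger than the size rule and no variation between cells or libraries. They check the calculation only, not calls near the size rule. Positions come from GENCODE 29. Analyses used Python 3.11.15, numpy 2.4.6, scipy 1.17.1 and pandas 2.3.3, and edgeR 4.0.16 for TMM factors only.

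All 38 members are reported. Of each other list 5 genes were taken, 3 by ratio (measured, on the side of its median) and 2 by mean CPM, and for 5 members the 3 nearest by correlation. The value of 1 gene so taken is not reported here. The members, lists, subclone-like rule and tests were chosen with earlier results of these data known. Alternatives changed the cell limits, scaling, weighting of cells, free RNA, the kind of cell, the minimum CPM, the size rule, the depth of thinning and the limits of the classes.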

Additional observations from a re-analysis of the deposited data

How the results depend on the processing

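All 17 members lower by the size rule stayed below 0 in each of the 13 alternatives that changed cells, scaling or free RNA, and 10 of the 17 lower members passed the size rule in all 13. CDC6, MCM4, MCM6, DTL, RAD51AP1, NASP and CCNE2 missed it in 1 to 3 of them. The members' median log2 ratio was -0.87 without cells over 100000 UMIs, -0.82 with each cell weighted equally, -0.69 in subclone-like cells of both libraries and -0.47 in cells with at least 0.5% mitochondrial UMIs, a setting chosen after seeing the data. The count of lower members was 27 without cells over 100000 UMIs, where 13.1% of measured genes were lower. At a ratio of at least 2 it was 3, where 2.35% were lower. In the other settings it was between 12 (at least 0.5% mitochondrial UMIs, 8.99% of measured genes) and 23. Scaling by TMM factors moved all log2 ratios by -0.03 and by median-of-ratios size factors by 0.07.

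The median share component was -0.92 for cells with at least 2 UMIs. Replication-high cells made up 25.3% of control and 9.24% of knockdown cells at the control 75th percentile. They made up 50.05% of control cells of at most 10% mitochondrial UMIs, where the limit was 21 UMIs. In settings chosen after seeing the data, they made up 50.6% of control and 22.7% of knockdown cells without those over 100000 UMIs. With NASP, PCNA and MCM7 left out of the sum, also chosen after seeing the data, they made up 28.9% of knockdown cells. Apart from the 75th percentile, these limits were control medians, so the control shares were set by that choice. Histone-high cells made up 60.5% and 61.0% at the control median. The cause of these shifts was not tested.

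No paired analysis was possible because each condition is 1 library without replicate numbers. Depth limits EXO1, BLM, CHAF1B and E2F8, which stayed under 10 CPM, and in knockdown cells the shares of POLA1, TIPIN and USP1 were at or below those of collagen-rich barcodes.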
